A study of Mus musculus with 10 samples.

Results

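The DEAD box and DEAH box proteins are a large family of enzymes that use ATP to unwind or remodel RNA. Members were taken as every gene whose mouse symbol is Ddx or Dhx followed by a number, with 2 matching symbols left out by the rule, and 51 of the 57186 genes in the count table met it. The family was singled out because its member Ddx23 had the smallest p of all genes between the study's groups. The difference in Ddx23 is therefore given as a description and supports nothing. All 51 symbols were found, 49 had a count in at least 1 library, and 46 passed the filter on low counts and were tested. Of the others, Ddx3y and Ddx43 had 0 counts in every library, and Ddx11, Ddx60 and Ddx4 had 40, 13 and 7 counts over all 10 libraries.

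The study measured polyadenylated RNA from the neuroretina, the neural layer of the eye, of female C57BL6/JRj mice. Graphitic carbon nitride nanoparticles (CNP, 5 libraries), an hg-C3N4 material, were injected into the vitreous in phosphate-buffered saline (1 µL per injection, 1 mg/mL), and the comparison group (PBS, 5 libraries) received the saline alone. Both groups were collected at day 14, so the injection itself was common to them. Libraries are named by group and the number in their labels. The labels do not say whether each library came from its own animal, so p-values measure the spread between these libraries, which may be partly technical.

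Splicing of messenger RNA is driven by a sequence of such helicases, each of which acts at 1 step. Ddx46 and Ddx39b act while the branch site is chosen, Ddx23 hands the start of the intron from the U1 to the U6 small nuclear RNA, Dhx16 and Dhx38 prepare the chemical steps, Dhx8 releases the finished message, and Dhx15 takes the used complex apart. Other family members thread through ribosome assembly, translation, export and decay of RNA. Photoreceptors are known to be sensitive to splicing defects: inherited forms of retinitis pigmentosa map to splicing factors, among them Dhx38 and several proteins of the particle that carries Ddx23.

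The family is named after the letters of the ATP-hydrolysing motif. The coding bases of this motif are shown for the 12 spliceosomal members, Ddx23 and the genes compared with it. The bases themselves entered no comparison of levels. Sequences are from GENCODE M21 transcripts, 5′ to 3′ on the coding strand, with the 4 codons of the motif in capitals and 12 bases beside it on each side.
Ddx46: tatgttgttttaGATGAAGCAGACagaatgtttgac
Ddx39b: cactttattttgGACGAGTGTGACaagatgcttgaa
Ddx42: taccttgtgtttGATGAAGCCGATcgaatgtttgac
Ddx23: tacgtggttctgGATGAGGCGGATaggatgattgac
Dhx16: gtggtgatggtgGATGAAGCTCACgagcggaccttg
Dhx38: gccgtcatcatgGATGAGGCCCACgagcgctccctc
Dhx8: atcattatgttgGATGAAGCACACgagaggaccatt
Dhx15: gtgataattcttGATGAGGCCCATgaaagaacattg
Dhx35: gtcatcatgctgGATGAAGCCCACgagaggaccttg
Ddx41: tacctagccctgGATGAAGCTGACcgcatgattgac
Ddx5: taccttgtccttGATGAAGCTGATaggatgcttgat
Ddx17: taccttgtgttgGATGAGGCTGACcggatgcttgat

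The capitals encode DEAD in 6 of the 12, DEAH in 5 and DECD in Ddx39b. Over all 51 members the motif was DEAD in 28, DEAH in 9, DEVH in 4, DEVD in 3, DECD in 2 and DEIH in 2, and the search found none of these spellings in 3. Ddx23 (ENSMUSG00000003360) lies on chromosome 15 and encodes 819 codons before the stop codon in this annotation.

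Total counts per library ran from 3328518 to 5428697 in PBS and from 3493667 to 5354649 in CNP. Levels are given as CPM, each library's counts scaled to a common total. Marker levels in this paragraph use the raw total of each library. Levels of all other genes use totals adjusted by TMM, explained below. Of the photoreceptor markers, Sag, the rod arrestin, had 4471 to 6052 CPM in the PBS and 4390.1 to 5480 CPM in the CNP libraries, as the retina label requires. Markers of lens (4 genes found of 4, 193 to 6905 CPM with PBS and 220.2 to 3440 with CNP), pigment epithelium (4 of 4, 232 to 989 and 475 to 1089.7) and muscle (2 of 2, 5.87 to 11.1 and 7.15 to 73.0) varied between libraries. Libraries numbered above 10 differed from those numbered up to 10 in both groups. Mitochondrial genes held 3.21% to 4.45% of their counts against 1.96% to 2.39%, and pigment epithelium markers summed to 661 to 1089.7 CPM against 232 to 580 CPM. Most of that sum was Rgr (217 to 1005 CPM over all libraries). Rgr and Rpe65 did not overlap between the 2 sets of libraries, while Pmel (0.37 to 3.83 CPM) and Tyrp1 (2.25 to 9.70 CPM) did. Amacrine markers summed to 139 to 239 CPM against 318 to 577, and ganglion cell markers to 387 to 622 CPM against 663 to 914. With this split as a covariate in edgeR, 0 members were called and the log2 fold change of Ddx23 was 0.97. The marker levels themselves were not entered in a fit, so their part was not tested. In bulk tissue, fewer cells of a type and less RNA per cell cannot be told apart.

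The 51 members together held 0.194% to 0.270% of counts in PBS and 0.224% to 0.266% in CNP. After scaling by TMM (a correction for differences in library composition) their sum was 2395 ± 88.9 CPM with PBS and 2444 ± 115 with CNP (SD, n = 5 each), and the ranges overlapped (2300 to 2483 and 2347 to 2630). Without Ddx23 the sums were 2381 ± 89.1 and 2417 ± 108 CPM. The spliceosomal members were the largest share by role: 1156 ± 85.9 CPM with PBS and 1175 ± 88.7 with CNP.

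Abundance was steeply graded. Ddx5, a cofactor of splicing and transcription, held 23.1% of all family counts, and the 5 most counted members held 50.5%. On the CPM scale 4 members averaged above 100 CPM, 24 between 20 and 100, 6 between 10 and 20, and 12 below 10. Per kilobase of transcript, a scale that compares genes fairly only if read number grows with length, the mean level of Ddx5 was 158 CPM. It was followed by Ddx39b at 72.4, the ribosome assembly factor Ddx24 at 48.0 and Ddx1, of the tRNA ligase complex, at 43.2 CPM per kilobase. The order per kilobase resembled the order in CPM (Spearman's rho 0.953 across the 46 genes, a description in which both scales share the counts). The sources used here do not say whether read number grows with transcript length in these libraries. Ddx23 was 28th by mean CPM and 26th per kilobase of the 46, a mid-range level.

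**Figure D1:**
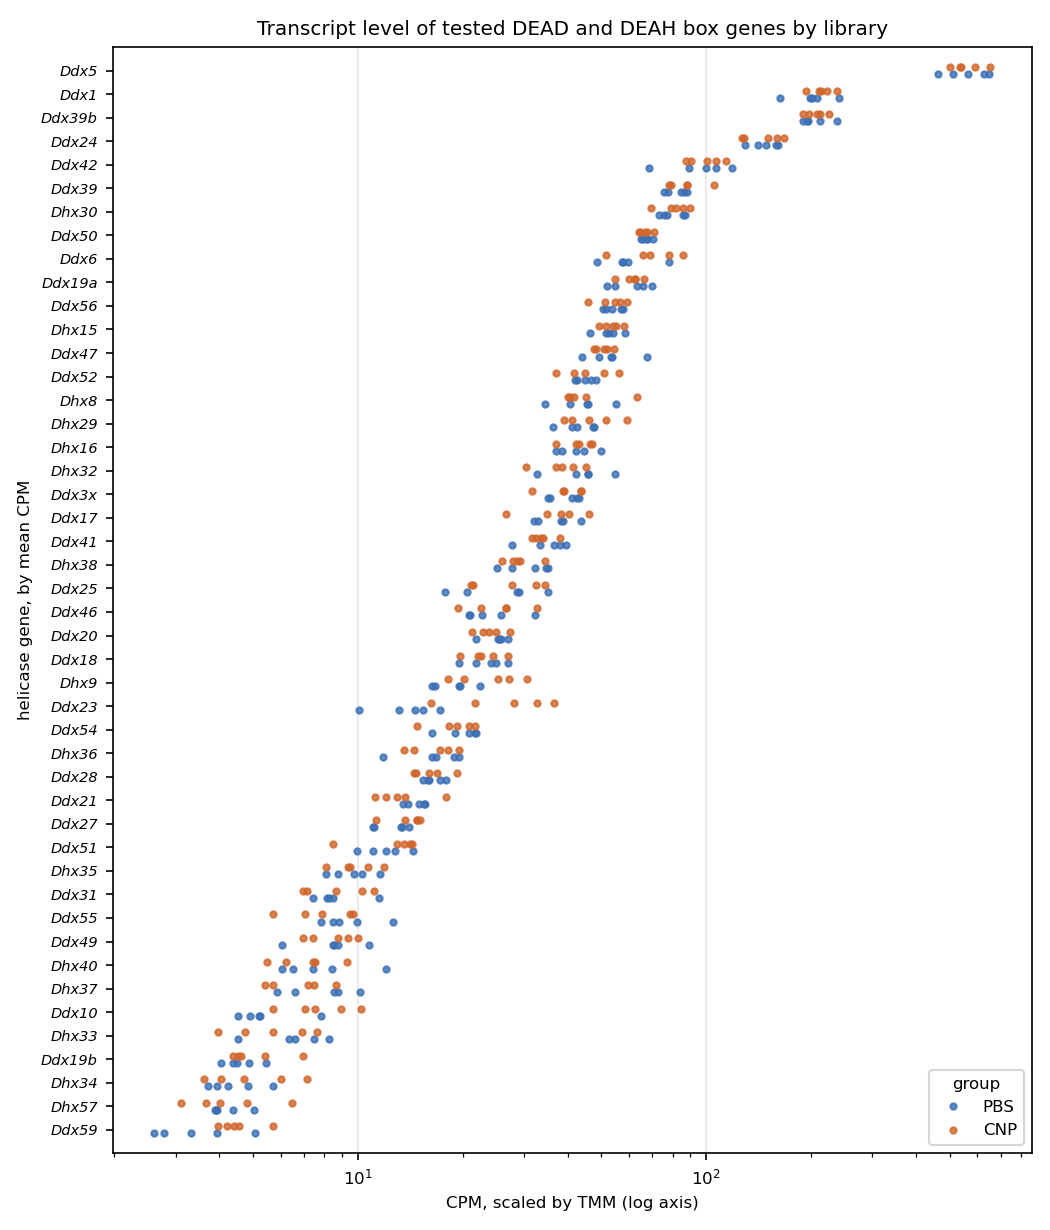
CPM scaled by TMM (log axis) of the 46 tested helicase genes, 1 row per gene in order of mean CPM, with a point for each of the 5 PBS and 5 CNP libraries. Ddx5 lies at 463 to 653 CPM, well above the rest, and the groups are intermixed in every row, Ddx23 overlapping least among the spliceosomal genes.

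Ddx23 stood at 13.2 CPM in PBS 2, 10.0 in PBS 6, 14.6 in PBS 10, 15.4 in PBS 14 and 17.2 in PBS 18. In CNP it stood at 28.0 in CNP 4, 32.6 in CNP 8, 21.7 in CNP 12, 16.2 in CNP 16 and 36.5 in CNP 20. Thus 4 of 5 CNP libraries exceeded every PBS library, while CNP 16 lay below PBS 18, and the spread in CNP (SD 8.19 around 27.0) was wider than in PBS (SD 2.70 around 14.1). The log2 fold change was 0.96 (95% interval 0.49 to 1.43), from 307 counts in PBS and 602 in CNP. Among libraries numbered up to 10 the CNP mean was 2.40 times the PBS mean (30.3 against 12.6 CPM), and among those above 10 it was 1.52 times (24.8 against 16.3 CPM). The biological coefficient of variation, the spread between libraries of a group beyond counting error, was 22.5% for Ddx23, the highest of the 46 members, whose median was 13.4%.

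Reads of close neighbours were looked at because Ddx23 is flanked tightly in the M21 annotation, by Cacnb3 on the opposite strand, 604 bases away, and Rnd1 on the same strand, 526 bases away. Cacnb3, a calcium channel subunit, had 12.04 to 29.8 CPM with PBS and 15.9 to 27.7 with CNP, with a log2 fold change of 0.25 (95% interval -0.23 to 0.74). Rnd1, a small GTPase, had 8.15 to 15.005 CPM with PBS and 6.46 to 11.3 with CNP, with -0.37 (-0.77 to 0.04). In CNP 20, where Ddx23 was highest, both neighbours were at their lowest of the CNP libraries. In CNP 8, where Ddx23 was second highest at 32.6 CPM, Rnd1 was at its highest of the CNP libraries (11.3 CPM) and Cacnb3 was at 26.5 CPM. Whether reads of the neighbours entered the Ddx23 count was not tested.

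None of the 11 other spliceosomal members of the family had a difference like that of Ddx23. Snrnp200, a splicing helicase with another symbol, is not among them. It is given below with the partners of Ddx23 (log2 fold change 0.29, 95% interval -0.01 to 0.58). All 11 were tested with edgeR's quasi-likelihood test, with Benjamini-Hochberg adjustment over the 11499 genes tested, and 0 passed. Of the 11, 8 had a positive and 3 a negative log2 fold change, against 48.8% positive among all genes tested. Their median log2 fold change was 0.02 and their range -0.08 to 0.07, beside a median of -0.0036 over all genes tested. The 95% intervals of the 11 lay between -0.35 and 0.42, and 0 of the 11 intervals held the estimate for Ddx23. All 11 intervals lay within 1.5-fold in either direction, as did 65.3% of all genes tested. The Ddx23 estimate lies beyond 1.5-fold, so the intervals of those genes leave it out too. It was picked for its small p and may be too large, so this yardstick does not set the 11 apart from most genes.

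**Figure D2:**
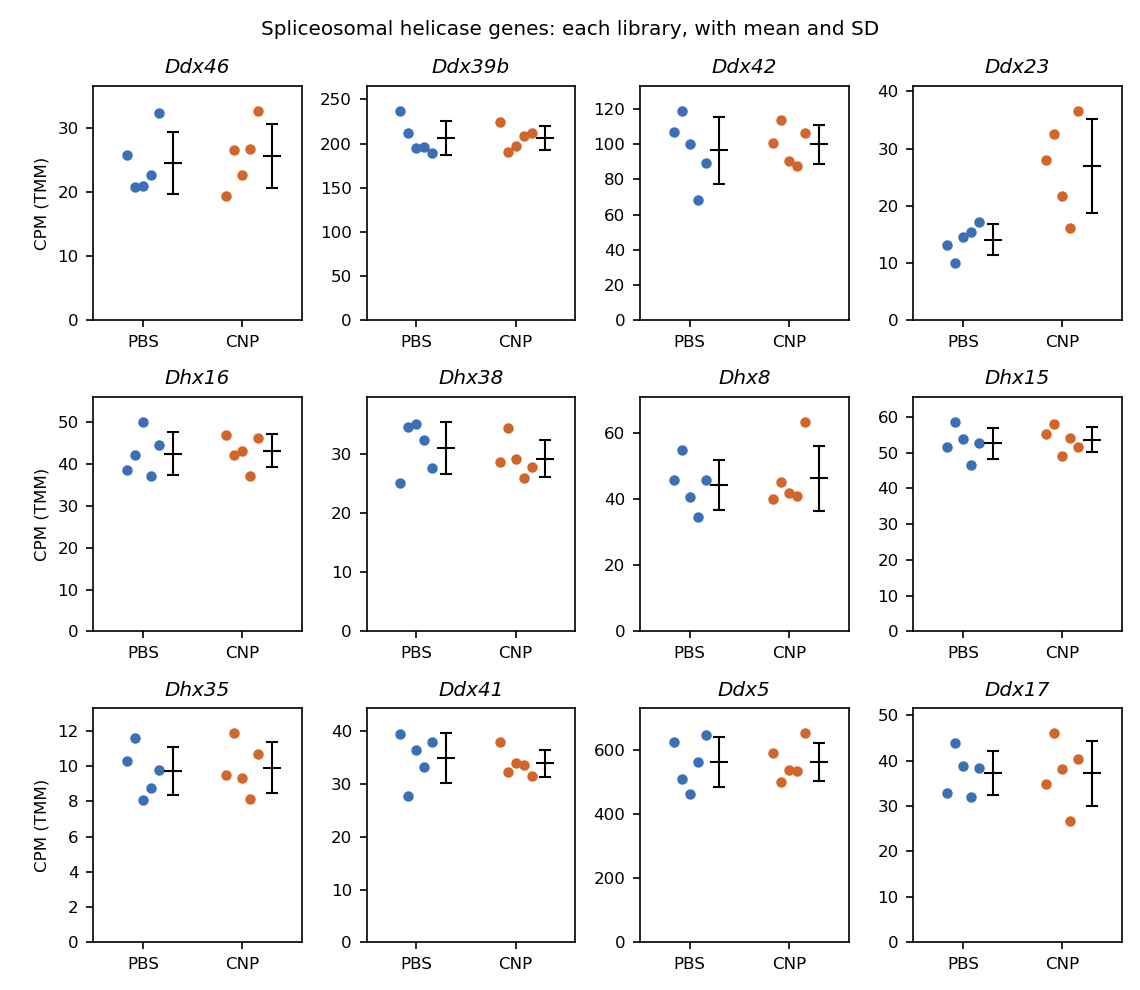
CPM scaled by TMM (linear axes from 0) of the 12 spliceosomal helicase genes, 1 panel per gene, with a point per library and the mean with SD beside each group of 5. In the Ddx23 panel 4 of 5 CNP points lie above every PBS point; in the other 11 panels the group means differ by less than the larger SD.

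At the early steps, Ddx46, which remodels the U2 particle at the branch site, had 20.8 to 32.2 CPM with PBS and 19.4 to 32.6 with CNP. Its log2 fold change of 0.07 (95% interval -0.28 to 0.42) was the highest of the 11. Ddx39b, which also escorts messages out of the nucleus, had 206 ± 19.1 CPM with PBS and 207 ± 13.3 with CNP. Ddx42, a U2 particle factor, had 96.7 ± 19.0 and 99.8 ± 10.9 CPM (SD, n = 5 each). The groups overlapped almost fully in each of the 3.

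Of the helicases that prepare the chemical steps or act after them, Dhx16 had 42.5 ± 5.13 CPM with PBS and 43.1 ± 3.91 with CNP. Dhx38, the family member tied to retinitis pigmentosa, stood at 25.1, 34.6, 35.1, 32.3 and 27.7 CPM in PBS 2, 6, 10, 14 and 18. It stood at 28.7, 34.4, 29.2, 26.0 and 27.8 CPM in CNP 4, 8, 12, 16 and 20. No CNP library lay above the PBS range, and the log2 fold change was -0.08 (95% interval -0.35 to 0.18), the lowest of the 11. Dhx8, which releases the spliced message, had 44.2 ± 7.53 CPM with PBS and 46.2 ± 9.69 with CNP, with CNP 20 at 63.1 CPM and the other CNP libraries at 40.02 to 45.02. Dhx15, which dismantles the spent complex, was the steadiest of the 12 with a biological coefficient of variation of 10.9%, and had 52.6 ± 4.33 and 53.6 ± 3.46 CPM (SD, n = 5 each).

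The remaining members of this list act as part of the catalytic complex or as cofactors. Dhx35 had 9.70 ± 1.37 CPM with PBS and 9.90 ± 1.43 with CNP. Ddx41 had 35.0 ± 4.68 and 33.9 ± 2.49 CPM. The paralogs Ddx5 and Ddx17 had 562 ± 77.5 and 563 ± 59.7 CPM, and 37.2 ± 4.83 and 37.2 ± 7.15 CPM (SD, n = 5 each). These 4 genes differed between groups by less than the spread within them.

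**Figure D3:**
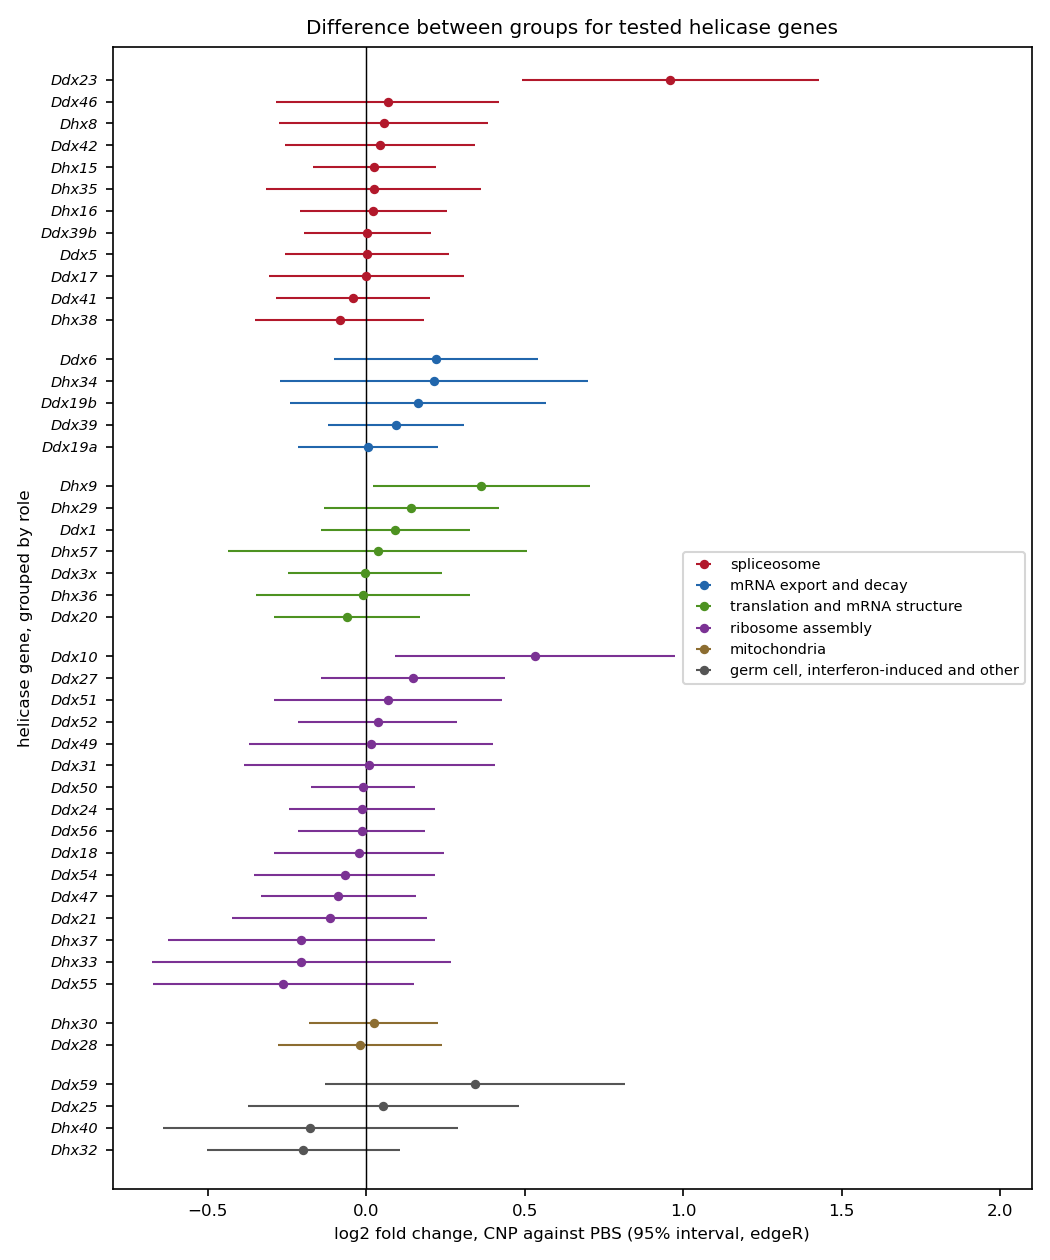
Log2 fold change, CNP against PBS, of the 46 tested helicase genes with 95% intervals from edgeR, grouped and coloured by role. Ddx23 at 0.96 stands to the right of the other 11 spliceosomal genes, which lie between -0.08 and 0.07, and 3 intervals in all leave out 0, those of Ddx23, Ddx10 and Dhx9.

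Deviations within groups do not use the difference between groups, though the p by which Ddx23 was picked also reflects the spread within them. They bear on whether the other spliceosomal members of the family moved with Ddx23 from library to library. The difference between libraries numbered up to 10 and above 10 was not removed from them. Log2 CPM of each gene was centred on its group mean, and the 11 were correlated with Ddx23 over the 10 libraries. Splicing helicases with other symbols, such as Snrnp200, were not included. Pearson's r ranged from -0.24 (Ddx39b) to 0.46 (Dhx16), with a median of 0.25, and 9 of 11 were positive. For Dhx16 the permutation p was 0.185 (two-sided, all 14400 orders within groups; 0.757 after Benjamini-Hochberg adjustment over the 11) and Spearman's rho was 0.35 (permutation p = 0.363, 0.678 adjusted). For Ddx17, r was 0.46 (permutation p = 0.27, 0.757 adjusted) and rho 0.36 (permutation p = 0.37, 0.678 adjusted). For Ddx46, r was 0.40 (permutation p = 0.287, 0.757 adjusted) and rho 0.39 (permutation p = 0.284, 0.678 adjusted). None of the 11 passed by r or by rho, and 0 had an unadjusted permutation p under 0.05.

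These correlations rested on few libraries. Without CNP 16 and PBS 6, the libraries farthest from the median of centred Ddx23, r for Dhx16 went to 0.20, that for Ddx46 to 0.64, and that for Ddx41 from 0.25 to -0.40. Without CNP 16 alone the median r over the 11 genes was -0.08 and 5 were positive. Without PBS 6 alone the median was 0.36 and the highest r 0.79, and 1 gene had an unadjusted permutation p under 0.05 (smallest adjusted p 0.363). With scaling by library totals alone all 11 were positive, with a median of 0.30 and a smallest adjusted permutation p of 0.499.

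**Figure D4:**
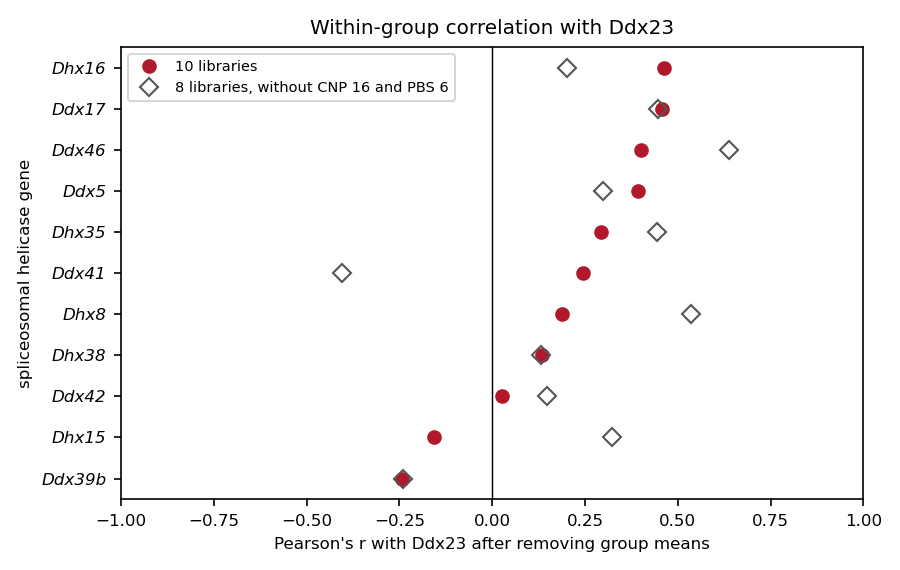
Pearson's r between centred log2 CPM of Ddx23 and of each of the other 11 spliceosomal helicase genes, over 10 libraries (filled) and without CNP 16 and PBS 6 (open). With 10 libraries the values lie between -0.24 and 0.46, and leaving out these libraries turns the sign for Ddx41 and Dhx15.

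Ddx23 works as part of the tri-snRNP, the particle that brings the U4, U5 and U6 small nuclear RNAs to the intron. The 17 listed partner genes were all tested and 0 passed; 5 had a positive and 12 a negative log2 fold change, with a median of -0.05 and a range of -0.13 to 0.29. The highest was Snrnp200, the helicase that unwinds U4 from U6 and a retinitis pigmentosa gene. It stood at 13.0, 13.8, 12.9, 16.01 and 14.3 CPM in PBS 2, 6, 10, 14 and 18, and at 13.0, 18.9, 16.6, 17.1 and 19.6 CPM in CNP 4, 8, 12, 16 and 20. In 4 of 5 CNP libraries it exceeded every PBS library, with CNP 4 among the PBS values, and the log2 fold change of 0.29 (95% interval -0.01 to 0.58) had an edgeR unadjusted p of 0.058 and an adjusted p of 0.9997.

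The other partners gave smaller values. Txnl4a had a log2 fold change of 0.15, and Rp9 and Usp39 had -0.13 each. Prpf8, the scaffold of the catalytic core, had 16.1 ± 2.47 CPM with PBS and 15.1 ± 3.75 with CNP. Srpk2, a kinase known to phosphorylate the Ddx23 protein, had 76.4 ± 14.8 and 75.4 ± 11.3 CPM (SD, n = 5 each).

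**Figure D5:**
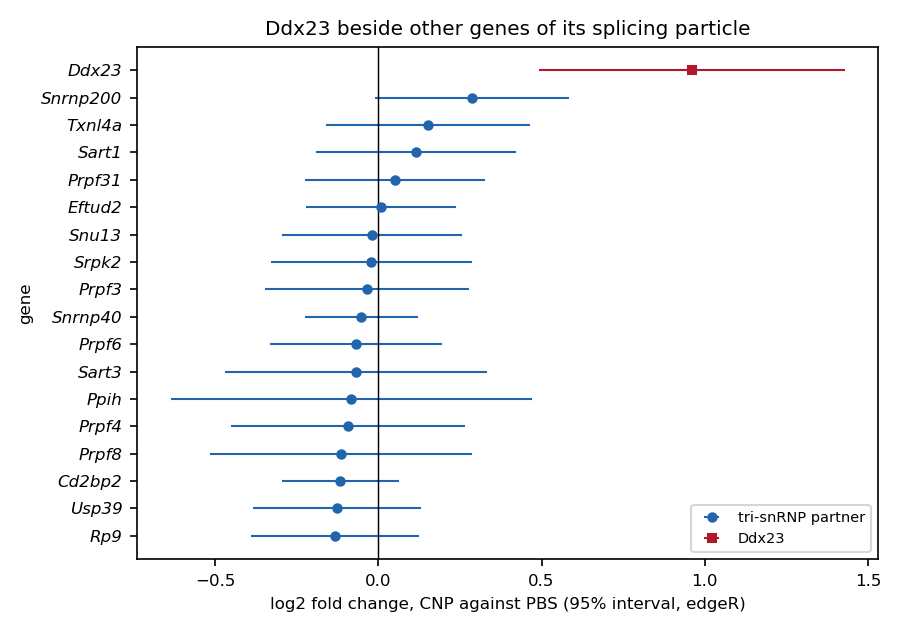
Log2 fold change, CNP against PBS, with 95% intervals from edgeR for Ddx23 and 17 other genes of the tri-snRNP list. The partners lie between -0.13 and 0.29, and Ddx23 at 0.96 lies outside their range.

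Across the whole family 0 of 46 tested members passed at an adjusted p under 0.05, where 0% of all genes tested passed; DESeq2 and limma-voom on the same genes also called 0. At an unadjusted p under 0.05 there were 3 members (6.52%), all higher in CNP, against a background of 1.19% of genes in either direction, 0.583% higher and 0.609% lower. That background is below the share of 0.05 that calibrated p-values give when no gene differs, so these p-values may be too large. With the split at library number 10 as a covariate, 272 genes and again 3 members were under 0.05, against 137 genes in the main fit. Of the 3 members in the main fit, Ddx23 was the gene for which the family was chosen. Without it, 2 of the other 45 (4.44%) remained, beside the same 1.19% of all genes, and whether these shares differ was not tested. Over the 46 members, DESeq2 and limma-voom also gave 3, and scaling by library totals alone gave 2. Without CNP 20 the number was 1 (Ddx23 itself), and it was 2 to 4 without any other single library. The median log2 fold change over the 46 was 0.01, with 27 positive and 19 negative. No member had groups that did not overlap, where 0.287% of all genes tested had. The 95% interval lay within 2-fold for 45 of the 46 (94.2% of all genes) and within 1.5-fold for 37.

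Ddx10, a factor for assembly of the small ribosomal subunit, stood at 4.89, 5.19, 5.24, 4.53 and 7.81 CPM in PBS 2, 6, 10, 14 and 18. It stood at 8.96, 7.03, 7.53, 5.72 and 10.2 CPM in CNP 4, 8, 12, 16 and 20. PBS 18 lay inside the CNP range and the other 4 PBS libraries lay below it. The log2 fold change was 0.53 (SE 0.20), on 122 and 174 counts, with an edgeR unadjusted p of 0.0221 and an adjusted p of 0.9997. Its interval (0.09 to 0.97) was the only one of the other 45 members to hold the Ddx23 estimate, a value picked for its small p. The unadjusted p passed 0.05 without 3 of the 10 libraries in turn (PBS 2, CNP 4 or CNP 20), at 0.0557 to 0.0611.

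Dhx9, a helicase of double-stranded RNA with roles in transcription and translation, stood at 19.6, 16.6, 16.4, 19.6 and 22.4 CPM in the PBS libraries in the same order. In CNP it stood at 20.1, 30.5, 25.3, 18.1 and 27.1 CPM. The 3 highest values were CNP 8, CNP 20 and CNP 12, and CNP 4 and CNP 16 lay within the PBS range. The log2 fold change was 0.36 (SE 0.16), with an edgeR unadjusted p of 0.0387 and an adjusted p of 0.9997. The unadjusted p passed 0.05 without 6 of the 10 libraries in turn (PBS 2, PBS 6, PBS 10, CNP 8, CNP 12 or CNP 20), at 0.0544 to 0.121.

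Among the 16 ribosome assembly members, all tested, 6 had a positive and 10 a negative log2 fold change, with a median of -0.01. The most abundant, Ddx24, had 148 ± 13.2 CPM with PBS and 146 ± 18.2 with CNP. Ddx50 had 67.3 ± 2.18 and 66.8 ± 2.69 CPM (SD, n = 5 each), and the 95% interval of its log2 fold change (-0.17 to 0.15) leaves out even a 1.5-fold change. Its nucleolar paralog Ddx21 was lower in level, at 14.7 ± 0.955 CPM with PBS and 13.6 ± 2.60 with CNP. The lowest value of the list was that of Ddx55, -0.26 (95% interval -0.67 to 0.15).

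The 5 members of export and decay all had positive values, from 0.01 to 0.22, with a median of 0.16 and 0 at an unadjusted p under 0.05. Ddx6, which represses and helps to decap messages, had 60.3 ± 10.8 CPM with PBS and 70.0 ± 12.9 with CNP, with PBS 18 at 78.1 and CNP 16 at 51.7 running against the group means. Ddx39 (also called Ddx39a), the export paralog of Ddx39b, had 82.4 ± 5.36 and 87.9 ± 10.8 CPM. Dhx34, which takes part in nonsense-mediated decay, had 4.48 ± 0.807 and 5.11 ± 1.45 CPM (SD, n = 5 each). In Ddx39, 3 CNP libraries exceeded the PBS range, in Ddx6 1 did, and in Dhx34 2 did.

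The export helicases Ddx19a and Ddx19b, which act at the nuclear pore, are uncertain as single genes. In the M21 transcripts 33.3% of the 50-base windows of Ddx19a are also in Ddx19b, and 27.2% the other way, and the sources used here do not say how shared reads were counted. Ddx19a had 61.0 ± 7.53 CPM with PBS and 61.2 ± 4.22 with CNP, and Ddx19b 4.65 ± 0.534 and 5.18 ± 1.07 (SD, n = 5 each). The pairs Ddx5 and Ddx17, Ddx39 and Ddx39b, and Ddx21 and Ddx50 shared 0 such windows.

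Of the 8 members of translation and RNA structure 7 were tested, with 4 positive and 3 negative values beside a median of 0.04. Ddx1 had 202 ± 27.9 CPM with PBS and 216 ± 15.8 with CNP, and PBS 2 at 163 CPM was the lowest library. Ddx3x, an X-linked factor of translation initiation, had 39.5 ± 3.82 and 39.4 ± 4.97 CPM. Dhx29, which helps ribosomes scan structured leaders, had 43.0 ± 4.67 and 47.4 ± 8.16 CPM (SD, n = 5 each), with CNP 20 at 59.2. Dhx57 had 4.22 ± 0.491 and 4.41 ± 1.31 CPM (SD, n = 5 each). Ddx3y, the Y-linked copy of Ddx3x, was without a count in the 10 libraries, as labels of female mice require; its upper limit from the pooled depth is 0.0677 CPM (counting error only).

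The mitochondrial members serve the ribosome of that organelle. Dhx30 had 79.8 ± 6.11 CPM with PBS and 81.2 ± 7.55 with CNP, and Ddx28 had 16.5 ± 1.03 and 16.2 ± 1.96 (SD, n = 5 each). Both intervals lay within 1.5-fold.

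Among the remaining members, Ddx25, best known from the testis, was well expressed in the neuroretina and was the second most variable of the family. It stood at 28.7, 35.1, 29.0, 17.8 and 20.5 CPM in PBS 2, 6, 10, 14 and 18, and at 32.5, 34.4, 21.1, 27.6 and 21.4 CPM in CNP 4, 8, 12, 16 and 20. The 4 lowest values were in libraries numbered above 10 (PBS 14, PBS 18, CNP 12 and CNP 20), while CNP 16 was at 27.6. These libraries also had the lower amacrine and ganglion cell sums and the higher mitochondrial share given above. The log2 fold change was 0.05 (95% interval -0.37 to 0.48), and 0.19 with the split at library number 10 as a covariate (edgeR unadjusted p = 0.125). Dhx32 had 44.3 ± 7.98 CPM with PBS and 38.5 ± 5.48 with CNP, and Dhx40, the third most variable, had 8.08 ± 2.37 and 7.20 ± 1.47. Ddx59, a gene tied to cilia, was the least abundant tested member in CPM, at 3.54 ± 0.997 and 4.58 ± 0.673 (SD, n = 5 each; log2 fold change 0.34, 95% interval -0.13 to 0.81).

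The untested members had no counts or too few to pass the filter on low counts. Over the PBS and the CNP libraries, the interferon-induced Ddx60 had 10 and 3 counts, the germ cell marker Ddx4 had 5 and 2, and the DNA helicase Ddx11 had 16 and 24. Exons of 11 members, 10 of them tested, overlap a gene on the opposite strand in M21, among them Ddx17, Ddx39, Dhx30 and Dhx32. The sources used here do not say whether counting used strand, so reads of such pairs may not be told apart; Ddx23, Ddx10 and Dhx9 have no such overlap.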

How the data were processed

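For 10 neuroretina libraries the authors deposited raw counts of reads per gene in 1 table, keyed by Ensembl ID. STAR, STARsolo and build GRCm39 are named, per the submitters' processing notes. Tool versions, annotation, strand and collapsing of molecular identifiers were not given in the sources used here, although the primers carried such identifiers, per the labels' protocols. Columns were matched by library name and grouped by title. A table of symbols named 51880 of the 57186 IDs. Transcript lengths and sequences came from GENCODE M21 (GRCm38), so no coordinates are given. Chi-square comparison of the 20 library pairs within groups gave 3.99 to 32.6 per degree of freedom, so no pair agreed within sampling noise.

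Genes were kept by filterByExpr (minimum count 10, minimum total 15). After TMM scaling, 11499 genes were tested two-sided by the quasi-likelihood method of edgeR 4.0.16 (R 4.3.3). P-values were adjusted over all of them (Benjamini-Hochberg, threshold 0.05). Standard errors and 95% intervals were derived from the F statistic. A count of 0 was read as allowing 3 counts. Correlations used log2 CPM with a prior count of 2. Alternatives included DESeq2 1.42.0 and limma 3.58.1 (voom). The scripts were tested on simulated data. Members and lists were chosen with earlier results of these data known. Genes were named by a rule. It took Ddx23 and all spliceosomal members, and from each other list the 2 most abundant members and the one with the smallest p. It added the 4 most and 4 least abundant and 3 most variable members, close paralogs, and members with 0 counts. Of the partners it took Prpf8, Snrnp200, Srpk2 and the 2 highest and 2 lowest fold changes, and of other RNA helicases the 3 most abundant. Cacnb3 and Rnd1 were named for their position. Ddx4, Ddx11 and Ddx60 were named as the untested members. Ddx31, Ddx51, Ddx55 and Upf1 were named after their values were seen.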

Additional observations from a re-analysis of the deposited data

Results flagged for a closer look

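In 5 of the 110 groups of 5 libraries examined (55 genes), 1 library stood apart from the other 4 by more than 0.71 of the group's whole range, and chance alone flags about 5% of groups. Ddx10 was at 7.81 CPM in PBS 18 and at 4.53 to 5.24 in the other PBS libraries. Ddx31, of ribosome assembly, was at 11.5 CPM in PBS 14 and at 7.42 to 8.48 in the rest. Ddx51, of the same list, was at 8.45 CPM in CNP 20 and at 13.0 to 14.3 in the rest. Dhx8 was at 63.1 CPM in CNP 20 and at 40.02 to 45.02 in the rest. Eif4a1, a translation initiation helicase outside the symbol rule, was at 501 CPM in CNP 4 and at 391 to 410.2 in the rest.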

How the results depend on the processing

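The number of members called was 0 under all 20 alternatives (10 fits with another test, scaling, filter or covariate and 10 with a library left out), and so was the number of all genes called. The log2 fold change of Ddx23 ran from 0.95 to 0.97 over the former and from 0.83 to 1.10 over the latter, with adjusted p from 0.55 to 1.00. The median over spliceosomal members other than Ddx23 stayed between -0.02 and 0.05, and that over all members between -0.01 and 0.02. Of 816 values of the 41 named genes, 77 had the opposite sign to the main value; outside left-out libraries this touched 9 genes (Ddx17, Ddx19a, Ddx24, Ddx28, Ddx39b, Ddx3x, Ddx5, Dhx57 and Srpk2), and no gene whose fold change exceeded its standard error. No spliceosomal member passed the correlation test under any of its 14 alternatives. No paired analysis was possible because the groups share no library number. For 9 of 46 members the 95% interval reached past 1.5-fold; 7 of these 9 averaged under 10 CPM, the others being Dhx9 and Ddx23.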

Other observations

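RNA helicases outside the symbol rule behaved much as the family did: of 14 listed genes 13 were tested, 8 had a positive and 5 a negative log2 fold change, and 0 passed in edgeR (0 at an unadjusted p under 0.05). The translation initiation helicases Eif4a1 and Eif4a2, DEAD box proteins with another symbol, had 442 ± 55.6 and 178 ± 12.6 CPM in PBS and 419 ± 46.5 and 183 ± 18.05 in CNP, and the exosome cofactor Mtrex 89.9 ± 10.4 and 91.9 ± 6.51 (SD, n = 5 each). Upf1, the helicase of nonsense-mediated decay, varied most of these, with a biological coefficient of variation of 42.6%: it stood at 15.8, 9.87, 25.8, 15.1 and 29.0 CPM in PBS 2, 6, 10, 14 and 18 and at 6.94, 29.9, 18.1, 9.76 and 29.8 CPM in CNP 4, 8, 12, 16 and 20. High and low libraries occurred in both groups.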
